A study of Mus musculus with 12 samples.

Results

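Vesicular nucleotide transport and purinergic signaling were followed through 10 genes in mouse female germline stem cells (FGSCs), the cultured germline cells of the ovary. The genes were the vesicular nucleotide transporter *Slc17a9*, the P2 receptors *P2rx1*, *P2rx4*, *P2rx7*, *P2ry1*, *P2ry2*, *P2ry12* and *P2ry14*, and the ectonucleotidases *Entpd1* and *Nt5e*. They were found by matching the RefSeq accession of each counted transcript to its gene symbol, and they made up 10 of 24813 genes and 30 of 41388 listed transcripts. The set was selected on measured values of these same libraries, and since it is not recorded which, all the comparisons count as used: the levels and changes of the 10 genes are given as a description with no p-value.

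RNA-seq was performed on 12 libraries in 4 groups of 3. KO was a *Stella* (*Dppa3*) knockout line made with lentiviral CRISPR/Cas9 guides and grown from 1 picked clone, and KO-con was its control. Over was transduced with a lentivirus that expresses *Stella* and selected with puromycin, and Over-con received the empty vector. All 4 groups were C57BL/6 FGSC cultures on mitomycin-treated STO feeder cells, a mouse fibroblast line whose RNA would be counted as well, in medium with LIF, EGF, bFGF and GDNF. Whether the repeats of a group came from separate cultures was not given in the sources used here, so the tests below measure only the spread between these samples. In such bulk samples, fewer cells of a type and less RNA per cell cannot be told apart.

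The libraries held 5611846 to 12866545 counts, with a median of 10221419, and the shallowest was Over-con replicate 2. *Stella* itself, with 1 listed transcript, had 285 to 371 counts in the Over libraries and 0 in the other 9, where a count of 0 allows up to 3 counts. KO-con, the knockout's own control, was among those at 0. The *Stella* counts thus checked the overexpression and could not check the knockout. The germ cell markers *Ddx4* and *Gfra1* were at 0 in every library and *Dazl* had 1 count in all. Each of these is listed with 2 or more transcripts, for which the table holds few counts as described below. Among markers with 1 listed transcript, 1 of 2 germ cell markers (*Ifitm3*) reached a mean of 1 CPM (counts per 1000000 counts of the library), as did 3 of 7 mast cell, 3 of 5 macrophage, 2 of 5 megakaryocyte and 4 of 4 fibroblast markers.

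Cells release ATP and other nucleotides from vesicles that SLC17A9 has loaded, or through membrane channels. Outside the cell, nucleotides open the P2X channels, which are gated by ATP, and activate the P2Y receptors, which couple to G proteins. Ectonucleotidases then remove the phosphates stepwise: the enzyme encoded by *Entpd1* (CD39) takes ATP and ADP to AMP, and that of *Nt5e* (CD73) takes AMP to adenosine. Adenosine acts on its own receptors or is taken up by nucleoside transporters.

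How much of this could be read depended on the way the counts were made. They were given per RefSeq transcript, and genes with several listed transcripts held few counts: a mean of 1 CPM or more was reached by 50.6% of 13105 protein-coding genes with 1 listed transcript, whereas 23.3% of 7541 genes with 2 or more did so. How reads shared by several transcripts were treated was not given in the sources used here. Among the 10 genes only *Slc17a9*, *P2rx1* and *Nt5e* have 1 listed transcript, and these 3 held nearly all of the counts. Low or absent counts of the other 7 therefore cannot be read as low expression. CPM values are not scaled by transcript length, so levels are compared between groups and not between genes.

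*Slc17a9*, the transporter that fills vesicles with ATP, was lower in KO than in KO-con and, by a smaller amount, lower in Over than in Over-con. The gene lies on chromosome 2 at chr2:180459968-180476985 (NCBIM37, plus strand), its longest annotated transcript has 13 exons, and no other gene overlaps it in the annotation. The KO libraries held 19, 31 and 22 counts and the KO-con libraries 270, 243 and 228. The Over libraries held 336, 358 and 301 counts and the Over-con libraries 512, 259 and 619. Scaled for library size, replicates of a group lay close together, and the 259 counts came from the shallowest library. In KO the level was 2.17, 2.71 and 2.00 CPM, and in KO-con it was 28.2, 21.6 and 27.5 CPM. In Over it was 31.1, 27.8 and 32.3 CPM, and in Over-con 52.3, 45.5 and 59.6 CPM. Neither engineered line overlapped its own control, and each was the lower of the pair.

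**Figure D1:**
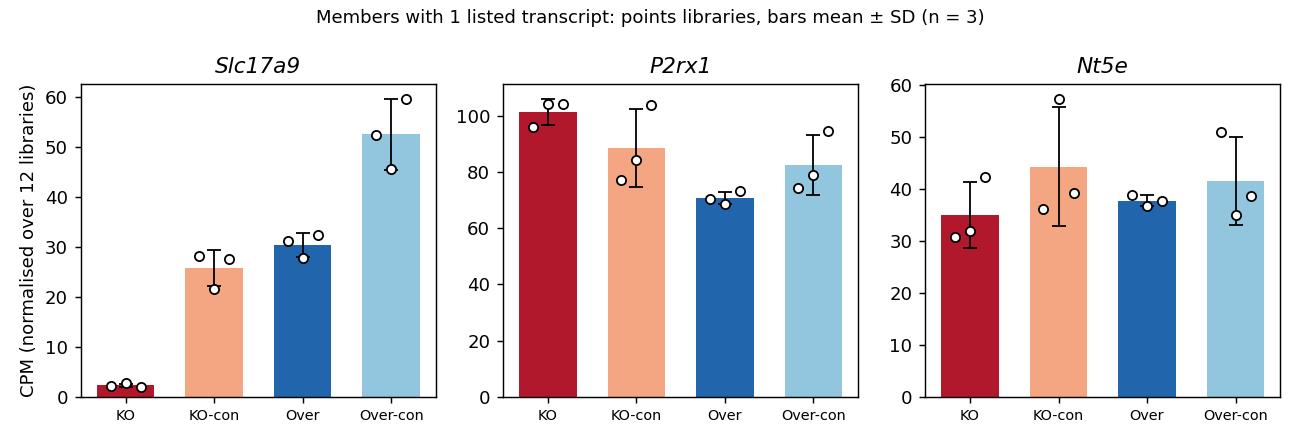
CPM of *Slc17a9*, *P2rx1* and *Nt5e* in the 4 groups, with points for libraries, bars for the mean and error bars for the SD (n = 3), each panel on its own axis from 0. *Slc17a9* falls to 2.29 CPM in KO, while the groups of *P2rx1* and *Nt5e* lie close together.

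The mean *Slc17a9* level was 52.4 ± 7.08 CPM in Over-con, 30.4 ± 2.36 in Over, 25.7 ± 3.64 in KO-con and 2.29 ± 0.370 in KO (SD, n = 3 each). In that order of levels, KO-con and Over were the only neighbours whose libraries overlapped. The log2 fold change of KO against KO-con was -3.46 (SE 0.18), an 11.04-fold lower level, and that of Over against Over-con was -0.81 (SE 0.11), or 1.75-fold lower. The controls themselves differed, KO-con being 2.06-fold below Over-con (log2 fold change -1.04, SE 0.12). The knockout effect minus the overexpression effect was -2.66 (SE 0.22) on the log2 scale. Because the controls were unequal, the sign of the Over value depended on the control: Over lay 0.24 above KO-con on the log2 scale, whereas KO lay below either control.

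Against all transcripts tested, *Slc17a9* was among the called (adjusted p under 0.05 with a log2 fold change beyond 1 in either direction) in KO against KO-con, where 1.7% of 9457 transcripts were called. It was the 1 transcript called of the 5 tested from 4 of the 10 genes. In Over against Over-con, 0.17% of 9401 were called and none of the 4 transcripts tested from the set was among them. There *Slc17a9* passed the adjusted p alone, as 1.65% of transcripts did, with a change smaller than the fold required. It was also among the 2.16% called between the controls and the 1.9% called for the difference between the effects. Its libraries did not overlap in either line, as was so for 30.1% of transcripts in KO and 19.1% in Over. Since these contrasts count as used in selecting the set, nothing is read from its counts here.

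Markers of other cell types moved between the same groups. The summed level of the 10 mast cell markers was 753 to 860 CPM in Over-con, 646 to 671 in Over, 367 to 434 in KO-con and 1156 to 1228 in KO, nearly all of it from *Cpa3*, a mast cell protease. *Fcer1a* and *Tpsab1* of this list, each with 1 listed transcript, were at 0, as was *Ms4a2*, which has 4 listed transcripts. A 0 of a gene with several listed transcripts cannot be read as low expression. The 6 fibroblast markers summed to 1377 to 1555 CPM in Over-con, 1227 to 1298 in Over, 973 to 1158 in KO-con and 866 to 1254 in KO. *Pdgfrb*, which has 2 listed transcripts, was at 0. The 7 germ cell markers summed to 150 to 164 CPM in Over-con, 117 to 133 in Over, 114 to 137 in KO-con and 76.6 to 120 in KO, nearly all of it from *Ifitm3*. Thus the mast cell sum was highest in KO, where *Slc17a9* was lowest, but it was lowest in KO-con and not in Over-con, where *Slc17a9* was highest. The fibroblast and germ cell sums were highest in Over-con, as *Slc17a9* was. Single markers differed from their sums: the germ cell marker *Prdm1* was highest in KO-con (1.84 ± 0.147 CPM, SD, n = 3) and lower in KO (log2 fold change -2.48, SE 0.44, edgeR adjusted p = 0.00147), and the fibroblast marker *Thy1* had its highest mean, 45.9 CPM, in KO. Their part in the *Slc17a9* values was not tested.

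*P2rx1*, an ATP-gated cation channel found on platelets and other blood cells, showed small differences in both lines. It lies at chr11:72812605-72828702 (NCBIM37, plus strand). In KO it was at 96.1, 104.1 and 104.3 CPM and in KO-con at 77.2, 84.2 and 103.9 CPM, so 1 control library reached the KO range. In Over it was at 70.4, 68.7 and 73.2 CPM and in Over-con at 74.2, 78.8 and 94.5 CPM, with no overlap. The log2 fold change was 0.21 (SE 0.10) in KO and -0.23 (SE 0.09) in Over, and the controls differed by 0.10 (SE 0.11). The knockout effect minus the overexpression effect was 0.44 (SE 0.14), and in none of the 4 comparisons was *P2rx1* among the called. The 5 megakaryocyte markers summed to 263 to 317 CPM in Over-con, 313 to 327 in Over, 232 to 273 in KO-con and 319 to 355 in KO. Most of that was *Itga2b*, while *Pf4* had at most 2 counts in a library. Their part in the *P2rx1* values was not tested.

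*Nt5e*, the enzyme that makes adenosine from AMP, overlapped between each line and its control. It lies at chr9:88222447-88266927 (NCBIM37, plus strand). In KO it was at 30.7, 32.0 and 42.3 CPM and in KO-con at 36.2, 57.4 and 39.2 CPM. In Over it was at 38.9, 36.7 and 37.7 CPM and in Over-con at 51.0, 34.9 and 38.6 CPM. In both comparisons 1 library in each control stood above the others. The log2 fold change was -0.34 (SE 0.16) in KO and -0.16 (SE 0.12) in Over, between the controls it was 0.09 (SE 0.15), and the effects differed by -0.18 (SE 0.23).

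*P2ry14*, the receptor for UDP-glucose and other UDP-sugars, had 354 counts in all, from 3 of its 8 listed transcripts. Summed over transcripts it was at 19 to 41 counts or 2.33 to 4.12 CPM per library. The group means of the sum were 3.25 ± 0.458 CPM in Over-con, 2.51 ± 0.249 in Over, 3.17 ± 0.494 in KO-con and 3.09 ± 0.889 in KO (SD, n = 3 each). The 2 transcripts tested in KO had values of opposite sign. NM_001287120 had 7, 10 and 8 counts in KO against 18, 22 and 11 in KO-con, a log2 fold change of -1.10 (SE 0.37) with no overlap. It was not tested in Over, where 5, 7 and 7 counts stood against 8, 6 and 24 in Over-con, with no overlap in CPM. Of all transcripts tested, 30.1% in KO and 19.1% in Over had no overlap. NM_001287119 had 20, 9 and 14 counts in KO against 7, 15 and 7 in KO-con, with 0.50 (SE 0.45) and overlapping groups, and in Over it changed by -0.03 (SE 0.33). Over all its transcripts the gene had 94 counts in KO and 94 in KO-con.

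The genes *P2ry12* and *P2ry14* lie on the minus strand of chromosome 3 inside *Med12l*, which is read from the plus strand. The library kit keeps strand, but the strand setting of the counting was not given in the sources used here, so reads of these overlapping genes cannot be told apart. *Med12l* had 2749 counts in all, and its log2 fold change was 0.12 (SE 0.11, edgeR adjusted p = 0.554) in KO and 0.45 (SE 0.12, edgeR adjusted p = 0.0945) in Over.

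The remaining members were at the edge of detection. *P2rx7*, an ATP-gated channel that opens at high ATP, had 69 counts in all and 3 to 10 in a library, from 3 of 5 listed transcripts. The ADP receptor *P2ry1* had 37 counts, at most 7 in a library, and *P2ry2*, a receptor for ATP and UTP, had 16, at most 4 in a library. *Entpd1* had 10 counts in all. *P2rx4*, an ATP-gated channel, and *P2ry12*, the ADP receptor of platelets and microglia, had 0 counts in all 12 libraries. A count of 0 allows up to 3 counts as the authors counted them, 0.233 to 0.527 CPM depending on the library. None of these 6 genes passed the filter on low counts. With these counts no difference between groups could be tested for them, and as each has 2 or more listed transcripts, the low counts say nothing of their expression.

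**Figure D2:**
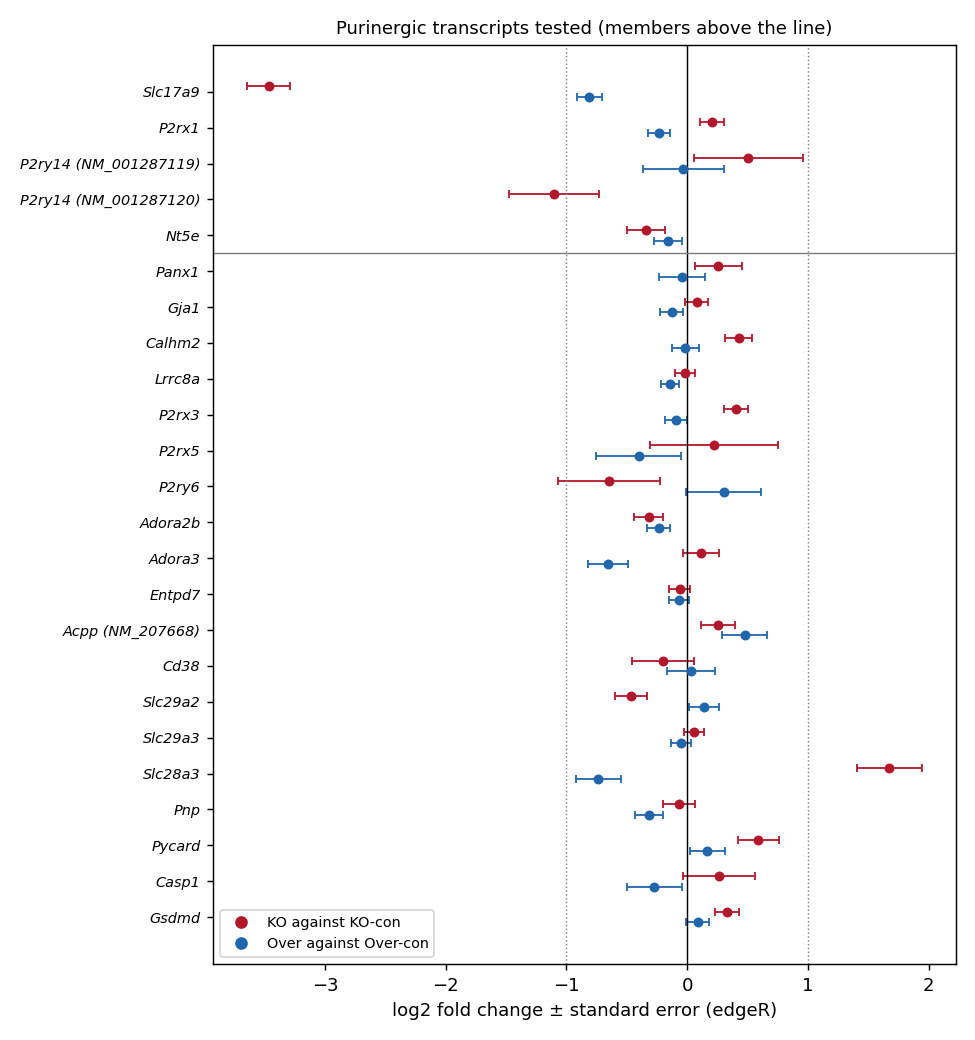
Log2 fold change with its standard error (horizontal axis, edgeR) of each purinergic transcript tested, in KO against KO-con and in Over against Over-con, with dotted lines at a log2 fold change of 1 in either direction. In KO, *Slc17a9* at -3.46 and *Slc28a3* at 1.67 lie farthest out.

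The rest of the pathway was read from 58 further genes in 7 lists, of which 19 were tested in each line. Another 39 were tested in neither, 22 of them with 2 or more listed transcripts and 17 with 1 listed transcript and 2 to 98 counts in all. In KO, 5 of the 19 passed an adjusted p of 0.05 as higher and 1 as lower, against 11.8% of all transcripts tested, and 1 also passed the fold requirement. Their median log2 fold change was 0.11, against 0.01 for all transcripts. In Over, 0 of 19 passed in edgeR and in limma-voom and 1 in DESeq2, 5 had an unadjusted p under 0.05, and the median was -0.07. The lists were chosen with earlier results of these data known, so these shares and medians are not read as a result about the pathway.

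Among nucleoside transporters, *Slc28a3*, a concentrative transporter that brings nucleosides into the cell with sodium, was higher in KO than in KO-con. It was at 5.38, 5.15 and 4.72 CPM in KO and 1.98, 1.06 and 1.81 in KO-con, and at 5.18, 5.20 and 3.97 in Over and 7.35, 7.90 and 8.67 in Over-con. KO-con was the low group, Over-con the high one, and KO and Over overlapped. The log2 fold change in KO was 1.67 (SE 0.27, edgeR adjusted p = 0.000745) and in Over -0.74 (SE 0.18, edgeR adjusted p = 0.0626). Between the controls it was -2.32 (SE 0.26, edgeR adjusted p = 1.49e-06), and the effects differed by 2.41 (SE 0.31, edgeR adjusted p = 3.9e-05). The direction depended on the control: against Over-con, KO was lower by 0.66 on the log2 scale, and against KO-con, Over was higher by 1.59.

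*Slc29a2*, an equilibrative nucleoside transporter, was lower in KO, at 14.6, 13.4 and 12.4 CPM against 16.7, 20.0 and 19.2 in KO-con. Its log2 fold change was -0.47 (SE 0.13, edgeR adjusted p = 0.0308) in KO and 0.14 (SE 0.13, edgeR adjusted p = 0.705) in Over. The effects differed by -0.61 (SE 0.18, edgeR adjusted p = 0.0384). Of the 10 genes for nucleoside transport and metabolism, 4 were tested, and *Slc29a3* and *Pnp* passed in none of the 4 comparisons.

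**Figure D3:**
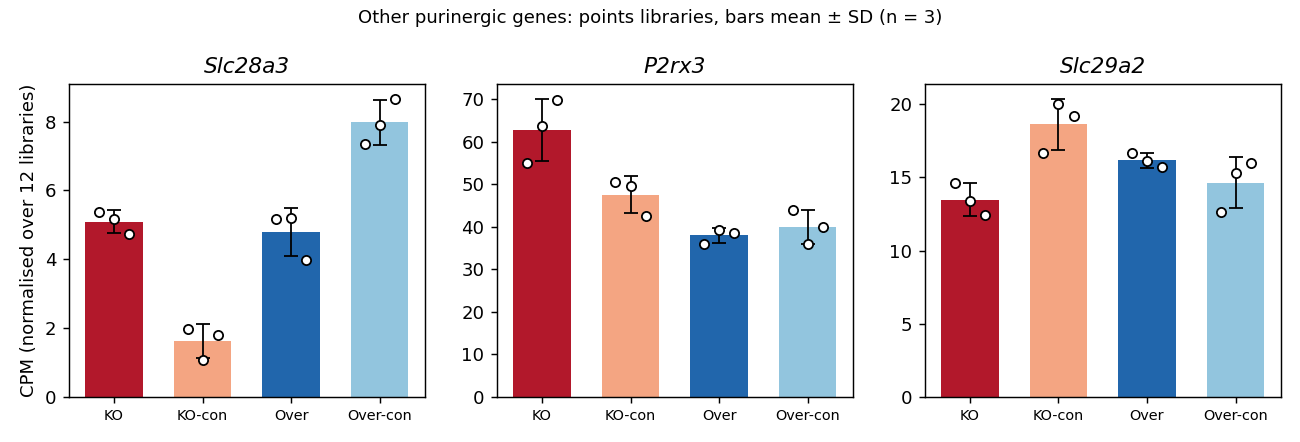
CPM of *Slc28a3*, *P2rx3* and *Slc29a2* in the 4 groups, with points for libraries, bars for the mean and error bars for the SD (n = 3), each panel on its own axis from 0. KO-con has the lowest *Slc28a3* level (mean 1.62 CPM), and KO has the highest *P2rx3* level (mean 62.8 CPM).

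Of the other 7 P2 receptors 3 were tested, and 1 passed in KO. *P2rx3*, an ATP-gated channel best known from sensory neurons, was at 55.05, 63.6 and 69.7 CPM in KO and 50.5, 49.7 and 42.6 in KO-con. In Over it was at 36.0, 39.3 and 38.6 CPM and in Over-con at 44.0, 36.0 and 40.1. It was higher in each KO library than in any other library. The log2 fold change was 0.40 (SE 0.10, edgeR adjusted p = 0.0161) in KO and -0.09 (SE 0.09, edgeR adjusted p = 0.741) in Over, and the effects differed by 0.50 (SE 0.14, edgeR adjusted p = 0.0322). *P2rx5* and *P2ry6* had group means of 0.968 to 2.499 CPM and passed in none of the comparisons.

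The adenosine receptors held 2 tested genes of 4 in each line. *Adora3* was at 9.25, 9.15 and 9.13 CPM in Over and at 15.9, 10.0 and 16.2 in Over-con, with a log2 fold change of -0.66 (SE 0.17, edgeR adjusted p = 0.0644). In KO the value was 0.11 (SE 0.15, edgeR adjusted p = 0.712), and the effects differed by 0.77 (SE 0.23, edgeR adjusted p = 0.0391). *Adora2b* had a log2 fold change of -0.32 in KO and -0.24 in Over and passed in neither.

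Of 8 genes for other routes of nucleotide release 4 were tested. *Calhm2*, of the calcium homeostasis modulator channel family, was higher in KO, with 31.2 ± 3.90 CPM against 23.4 ± 0.963 (SD, n = 3 each, log2 fold change 0.43, SE 0.11, edgeR adjusted p = 0.0234). *Panx1*, the pannexin channel, *Gja1* (connexin 43) and *Lrrc8a*, a subunit of volume-regulated anion channels, passed in none of the comparisons. Of 15 further genes listed with the ectonucleotidases, 3 were tested in each line (*Entpd7*, *Acpp* and *Cd38*). None passed in KO or Over with edgeR, DESeq2 or limma-voom. In edgeR 0 had an unadjusted p under 0.05 in KO and 1 in Over. Transcript NM_207668 of *Acpp*, a phosphatase that also makes adenosine from AMP, was higher in KO-con than in Over-con, at 10.96 ± 0.968 against 5.82 ± 1.12 CPM (SD, n = 3 each, log2 fold change 0.95, SE 0.18, edgeR adjusted p = 0.000891). None of the other 8 SLC17 transporters held enough counts to be tested.

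The inflammasome genes, which ATP engages through P2X7 in macrophages, held 3 tested genes of 6. *Pycard*, the adaptor ASC, was higher in KO with 13.99 ± 2.54 CPM against 9.35 ± 1.17 (SD, n = 3 each, log2 fold change 0.59, SE 0.17, edgeR adjusted p = 0.0308). *Gsdmd*, the pore-forming gasdermin D, was higher too, with 38.8 ± 3.47 against 31.0 ± 1.77 CPM (SD, n = 3 each, log2 fold change 0.33, SE 0.10, edgeR adjusted p = 0.0453), while *Casp1* did not pass. The 8 macrophage markers summed to 216 to 238 CPM in Over-con, 235 to 239 in Over, 181 to 204 in KO-con and 229 to 270 in KO, mostly *Fcgr1*. *Adgre1* and *Itgam* were at 0, but with 3 and 2 listed transcripts this cannot be read as low expression. The part of the macrophage markers was not tested.

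Of the 6 further genes that passed the adjusted p in KO, only *Slc28a3* passed whichever library was left out. *P2rx3* did not pass in KO without KO replicate 2 or 3 or KO-con replicate 3, nor *Slc29a2* without KO replicate 2 or 3 or KO-con replicate 2 or 3. *Pycard* and *Gsdmd* did not pass without KO replicate 2 or any 1 of the KO-con libraries, and *Calhm2* did not pass when any 1 library other than KO replicate 1 was left out.

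For the difference between the effects, 22 further genes could be tested, and 3 passed as higher (*P2rx3*, *Adora3* and *Slc28a3*) and 1 as lower (*Slc29a2*), against 8.64% of 9903 transcripts. Between the controls 2 of 19 passed, *Acpp* as higher and *Slc28a3* as lower in KO-con, against 16.3% of 9321. Except for *Slc28a3*, the genes that passed for the difference no longer passed in most fits that left out 1 library. *P2rx3* passed only without KO replicate 1 or Over-con replicate 2 or 3. *Slc29a2* passed only without KO replicate 1, KO-con replicate 1 or Over-con replicate 3. *Adora3* passed only without KO replicate 1, KO-con replicate 2 or Over-con replicate 2.

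The transcripts whose levels followed *Slc17a9* most closely were found by Pearson correlation of log2 CPM over the 12 libraries, among 9902 transcripts. They were *Ccn3*, a secreted matricellular protein (r = 0.995), *Xlr3a*, an X-linked lymphocyte-regulated gene (0.994), *Cd48*, a ligand on blood cells (0.983), *Noct*, the nocturnin phosphatase (0.973), and *Tmem64*, a transmembrane protein (0.970). The 12 libraries are 4 groups of 3, so these values rest mostly on group levels, and with the group means removed r was 0.241, 0.318, 0.337, 0.363 and -0.376. By Spearman correlation, 1 of the 5 stayed among the first 5.

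**Figure D4:**
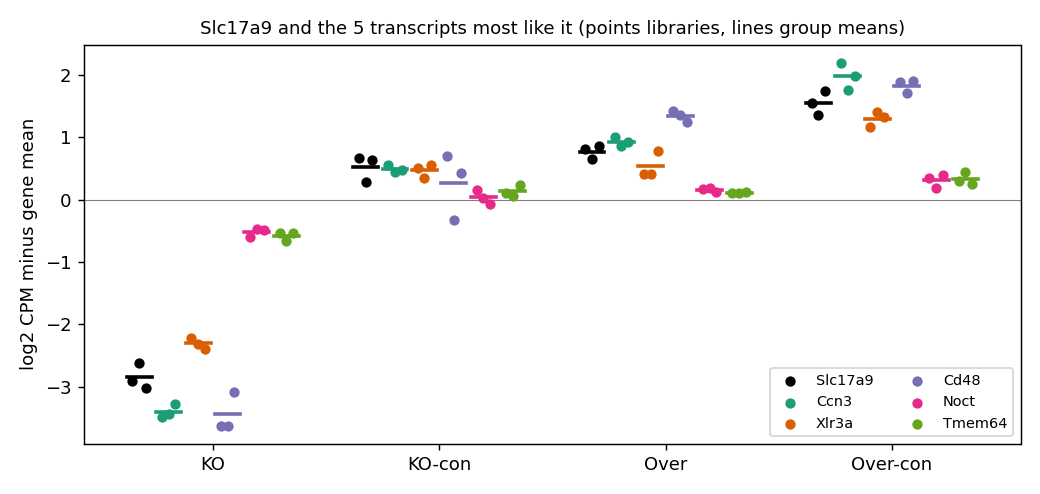
Log2 CPM minus each gene's mean over the 12 libraries (vertical axis) for *Slc17a9* and the 5 transcripts most like it, by group, with points for libraries and lines for group means. The mean of all 6 is lowest in KO and highest in Over-con, an order that comes with the choice by correlation. *Noct* and *Tmem64* span a narrower range than *Slc17a9*.

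*Ccn3* was at 664.4 ± 99.6 CPM in Over-con, 318.0 ± 16.4 in Over, 234.6 ± 8.98 in KO-con and 15.6 ± 1.23 in KO (SD, n = 3 each). *Xlr3a* was at 117.6 ± 10.1 CPM in Over-con, 69.6 ± 10.8 in Over, 66.05 ± 4.82 in KO-con and 9.47 ± 0.588 in KO (SD, n = 3 each). *Cd48* had 1 count in the KO libraries together and 20 to 94 in each of the others. As for *Slc17a9*, the mean of each was below its own control in both lines and lower in KO-con than in Over-con. Since they were chosen for following *Slc17a9* over these same libraries, the shared order is not a separate result.

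Genes beside *Slc17a9* had smaller fold changes. Within 500 kb of its start, 7 other transcripts were tested, and their log2 fold changes ran from -0.64 to 0.14 in KO and from -0.42 to 0.10 in Over. In KO 0 of 7 were among the called in edgeR, DESeq2 and limma-voom, and 3 had an unadjusted p under 0.05. Of all transcripts tested in KO, edgeR called 1.7%, and 11.8% passed the adjusted p alone. With 7 transcripts, such counts are not read as a result about the neighbours. By adjusted p alone, *Lama5* (laminin alpha 5, -0.64, SE 0.08, edgeR adjusted p = 7.76e-05) and *Ythdf1* (an m6A reader, -0.24, SE 0.07, edgeR adjusted p = 0.0262) were lower in KO. In Over 0 of 7 passed with any of the 3 tools, where 1.65% of all transcripts passed in edgeR, and 1 had an unadjusted p under 0.05. Between the controls 3 of 7 passed in edgeR (*Lama5*, *Cables2* and *Col20a1*), against 16.3% of all transcripts tested. *Lama5* was at 5877 CPM in KO-con against 3764 in KO, 3919 in Over and 4133 in Over-con, so the KO-con mean stood above those of the other 3 groups (log2 fold change 0.51 against Over-con, SE 0.09, edgeR adjusted p = 0.000459). The nearest gene with counts upstream was *Gid8*, 6.5 kb away, with 44 counts over both its counted transcripts. Its neighbour *Dido1* had a log2 fold change of -0.19 (SE 0.08, edgeR adjusted p = 0.153) in KO. Downstream the nearest with counts was *Ythdf1*, 162.1 kb away.

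**Figure D5:**
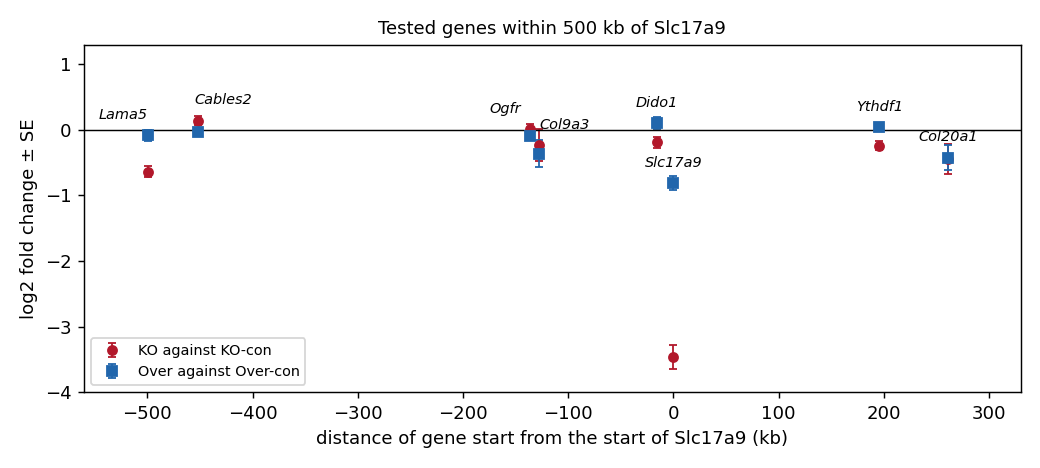
Log2 fold change with its standard error (vertical axis) of *Slc17a9* and the 7 other tested transcripts within 500 kb, by distance of the gene's start from the start of *Slc17a9* in kb (horizontal axis). The other 7 lie between -0.64 and 0.14 in KO, against -3.46 for *Slc17a9*.

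Around the other members only the nearest counted gene on each side was read, up to 355.5 kb away, and those tested passed in neither line. Farther genes could pass, as 11.8% of all transcripts tested did in KO. *Haspin*, whose start lies 139.2 kb from that of *P2rx1*, was higher in KO (0.77, SE 0.18, edgeR adjusted p = 0.0124). *Tctn3*, 0.1 kb from *Entpd1*, had a log2 fold change of 0.15 (SE 0.13, edgeR adjusted p = 0.538) in KO. *P2ry6*, itself a UDP receptor 32.2 kb from *P2ry2*, had -0.64 (SE 0.42, edgeR adjusted p = 0.372). *P2rx4* and *P2rx7* are neighbours on chromosome 5, 16.2 kb apart. *Rap2b*, 355.5 kb from *P2ry1*, had 0.14 (SE 0.08, edgeR adjusted p = 0.303). *Atp2a2* beside *P2rx7*, *Igsf10* beside *P2ry12* and *Ccnj* on the other side of *Entpd1* passed in neither line as well. *Atp2a3* and 4732414G09Rik beside *P2rx1*, *Snx14* beside *Nt5e*, *Camkk2* beside *P2rx4* and *Fchsd2* beside *P2ry2* held too few counts to be tested.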

How the data were processed

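FGSC RNA was sequenced with a stranded mRNA kit. Per the submitters' processing notes and the study's methods, reads were trimmed by the authors, then mapped with HISAT2 to mm9, and compared with DESeq2; versions and the strand and multi-mapping settings of the counting were not given in the sources used here. The deposited table holds raw counts per RefSeq transcript in 12 libraries, with no normalization. Accessions were given symbols from RefSeq (GRCm38.p6), which 41186 of 41388 transcripts matched. Positions are those of GENCODE vM1 on NCBIM37, the build of the files.

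Counts were analysed here in R 4.3.3 with edgeR 4.0.16 (filterByExpr, TMM, quasi-likelihood test, Benjamini-Hochberg adjustment over all transcripts tested), fitted within the libraries of each comparison. Calls required both an adjusted p under 0.05 and a log2 fold change beyond 1 in either direction. Each SE of a log2 fold change was its absolute value divided by the square root of the F statistic of the quasi-likelihood test. CPM values were scaled with TMM over all 12 libraries, and a prior count of 2 was used for log2 CPM in correlations. An exact permutation test of 3 against 3 cannot go below 0.1. The test was checked on simulated data. Figures were drawn with matplotlib 3.10.9. Counting intervals and limits cover counting error only.

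Alternatives were DESeq2 1.42.0, limma-voom (limma 3.58.1), DESeq2 size factors, other filters, a joint fit, a replicate block, leaving out each library and the control of the other line. The members and lists were chosen with earlier results of these data known. Genes named from the lists had to pass in at least 1 comparison, at most 3 per list and comparison; others are named as not passing. The 5 transcripts most like *Slc17a9* and the nearest counted genes were also named. The 500 kb window was chosen after seeing the data.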

Additional observations from a re-analysis of the deposited data

Results flagged for a closer look

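*Slc17a9* and 4 of 22 further purinergic genes tested were flagged. Their knockout effect (KO against KO-con) differed in value from the overexpression effect (Over against Over-con). The 4 further genes passed an adjusted p of 0.05 in edgeR, as 8.64% of 9903 transcripts did. For *Slc17a9* the difference was -2.66 on the log2 scale, with both effects negative, and it is given as a value since the gene was chosen with these contrasts known. In the test of the difference across all transcripts, *Slc28a3* had 2.41, *Adora3* 0.77, *P2rx3* 0.50 and *Slc29a2* -0.61. *Adora3*, *P2rx3* and *Slc29a2* no longer passed in most fits that left out 1 library. The difference holds all 4 groups, so a gap between the controls enters it: *Slc28a3* was at 1.62 CPM in KO-con and 7.97 in Over-con. For *Adora3* the libraries of Over and Over-con did not overlap and those of KO and KO-con did.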

How the results depend on the processing

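*Slc17a9* stayed lower in KO than KO-con under the 14 alternatives that keep this control (-3.61 to -3.37 on the log2 scale) and had a log2 fold change of -4.51 against Over-con. It stayed lower in Over than Over-con under the 14 that keep that control; against the control of the other line, Over was 0.24 higher. That control also turned *Slc28a3* to -0.66 in KO and 1.59 in Over, and *Acpp* to -0.47 in Over; the cause was not tested. Transcripts called numbered 161 in KO, 103 with at least 10 counts in every library and 1115 by adjusted p alone. In Over they numbered 16, 34 without a filter, 155 by adjusted p alone, 156 against the other control and 8 to 73 leaving out 1 library, the highest without Over-con replicate 3. By adjusted p alone, 1516 passed between the controls (201 called) and 856 for the difference (188 called). Libraries with the same replicate number showed no shared deviation (r from -0.15 to 0.06), and the main fits did not pair them. Whether they were handled in parallel cannot be told from these values. With a replicate block, 8 transcripts were called in Over. The purinergic genes that then no longer passed the adjusted p were *Gsdmd* and *Slc29a2* in KO and *P2rx3*, *Slc29a2* and *Adora3* for the difference. The purinergic genes outside the set that passed in KO numbered 6, and 1 to 6 leaving out 1 library: 2 without KO replicate 2 or KO-con replicate 2, 3 without KO replicate 3 or KO-con replicate 1, and 1 without KO-con replicate 3. Without KO replicate 2, only *Slc28a3* of the 6 still passed, so the count there includes a gene not among them. No difference could be tested for *P2rx4*, *P2rx7*, *P2ry1*, *P2ry2*, *P2ry12* and *Entpd1*, each with 2 or more listed transcripts and few or no counts. Whether depth or the counting limits them was not tested.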
